A study of Mus musculus with 8 samples.

Results

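The genes described here were grouped as activity-induced effectors that act at the synapse, though neither known induction nor a synaptic site is claimed for each. They are Arc, Homer1, the Polo-like kinases Plk2 and Plk3, the small GTPase Rheb, the pentraxins Nptx1, Nptx2 and Nptxr, and neuritin, Nrn1. They were chosen by name, with earlier results of these data known. Of the 9, 8 had a probe set annotated to their symbol alone, out of 22180 genes measured that way. Nptxr had none. RNA came from primary hippocampal neurons of C57BL/6J mouse embryos taken at E18.5 and grown for 11 days in vitro. In 4 cultures no KCl was added (untreated), and 4 cultures received 55 mM KCl for 4 h, which depolarises neurons and lets calcium in. Both groups carried no genetic change named in the labels, and both were fed medium with L-glutamic acid and with AraC, which kills dividing cells. Each culture was read on 1 Affymetrix array, with a mouse number of its own in the labels, and titles number the arrays of either group from 1 to 4. Nothing in the labels says whether cultures came from separate litters or preparations, so p-values measure the spread between these arrays.

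Activity genes include those that make transcription factors and those whose products act at the synapse itself. The genes here were grouped under the latter kind. Arc binds the endocytic machinery and removes AMPA-type glutamate receptors from the membrane. The long Homer proteins cross-link metabotropic glutamate receptors to the postsynaptic scaffold, and the short, activity-induced form of Homer1 breaks those links. Plk2 and Plk3 are kinases, and Plk2 marks a spine scaffold protein for degradation during homeostatic weakening of synapses. Rheb switches on the growth-controlling kinase complex mTORC1. The neuronal pentraxins gather AMPA receptors from the outside of the synapse, and neuritin is a membrane-anchored or released protein that promotes neurite and synapse growth.

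The start regions of 4 of the 9 genes were in the RefSeq promoter table (GRCm38.p6). They are shown because 3 of the 4 genes, Homer1, Plk2 and Plk3, are those that passed the test in at least 1 of the 2 fits given below, and Rheb passed in neither. Each line holds the 250 bases before the annotated start, 5′ to 3′ on the gene's strand, with every match to TGACG or its reverse complement CGTCA in capitals. TGACG is the core of the cAMP response element, the DNA motif bound by CREB, a calcium-responsive transcription factor.
Homer1, chr13:93303507-93303756, plus strand: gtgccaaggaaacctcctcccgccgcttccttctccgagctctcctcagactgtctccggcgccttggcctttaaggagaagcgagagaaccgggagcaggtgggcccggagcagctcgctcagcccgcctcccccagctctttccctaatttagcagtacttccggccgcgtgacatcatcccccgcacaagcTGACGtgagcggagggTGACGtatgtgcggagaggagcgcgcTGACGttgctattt
Plk2, chr13:110394794-110395043, plus strand: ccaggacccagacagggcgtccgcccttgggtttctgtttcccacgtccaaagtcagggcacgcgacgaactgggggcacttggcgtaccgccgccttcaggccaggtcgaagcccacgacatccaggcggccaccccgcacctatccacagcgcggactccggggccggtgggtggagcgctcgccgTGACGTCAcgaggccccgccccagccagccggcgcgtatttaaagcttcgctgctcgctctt
Plk3, chr4:117133964-117134213, minus strand: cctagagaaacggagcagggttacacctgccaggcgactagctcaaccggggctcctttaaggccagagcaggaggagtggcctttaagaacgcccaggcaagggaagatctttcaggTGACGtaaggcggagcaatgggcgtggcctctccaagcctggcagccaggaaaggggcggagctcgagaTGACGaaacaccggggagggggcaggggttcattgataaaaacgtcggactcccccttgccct
Rheb, chr5:24842362-24842611, minus strand: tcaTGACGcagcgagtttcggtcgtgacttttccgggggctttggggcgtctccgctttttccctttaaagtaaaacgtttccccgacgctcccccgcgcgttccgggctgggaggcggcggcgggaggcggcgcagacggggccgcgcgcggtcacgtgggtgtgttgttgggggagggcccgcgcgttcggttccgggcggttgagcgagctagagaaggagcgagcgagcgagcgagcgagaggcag

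Homer1 held 3 matches to TGACG, starting 56, 40 and 14 bases before the annotated start. Plk2 held the full palindrome TGACGTCA 62 bases before its start, in which the core is read once on each strand. Plk3 held 2 cores, at 132 and 63 bases. Rheb held 1 core, at 247 bases, near the far edge of the window, and 1 E-box, CACGTG, at 96 bases. Of the 32851 start regions in the table, 17.8% held TGACG on either strand in the same window, 1.55% held TGACGTCA and 6.02% held CACGTG. The AP-1 motif TGANTCA (6.75% of all start regions), the EGR motif GCGNGGGCG (4.7%) and the CArG box bound by SRF (1.47%) had no match in these 4 windows. A second annotated start of Homer1, further downstream, had no match to any of the 6 motifs. All were searched on both strands, and a match is a description of the letters, not of binding. The motifs were chosen after these promoters had been read, so the shares do not measure how unusual the matches are.

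Gene levels are the authors' RMA values, on a log2 scale on which 1 unit is a doubling. Array medians lay between 4.44 and 4.48 over 34472 probe sets. With limma, a linear model fitted to all 22180 genes with group as its term, and a threshold of 0.05 on the Benjamini-Hochberg adjusted p, 297 genes rose and 227 fell. The stimulus was visible on every array. Fos, an immediate-early transcription factor, stood at 5.57 to 6.90 in untreated and 10.30 to 10.56 in KCl arrays, and Fosb, Junb, Nr4a1 and Egr4 also rose. Npas4, a neuron-specific factor, stood at 5.69 to 10.61 and at 12.06 to 12.56. It missed the threshold in this fit (adjusted p = 0.0517) and rose in a second fit that takes replicate numbers as a block (adjusted p = 0.0324). All 8 neuronal markers, such as Map2 and Snap25, lay among the bright genes, averaging 10.83 to 11.15 in untreated and 10.77 to 11.09 in KCl arrays. Astrocyte RNA was also present (Gfap at 10.78 ± 0.25 and 10.76 ± 0.35, SD, n = 4 each).

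Of the 8 measured effectors, Homer1 rose after KCl and 7 did not pass the test, against 1.34% of all genes that rose. Shares of all genes are given for scale only, since the effectors were chosen with earlier results of these data known. The median log2 change of the 8 was 0.68, beside -0.01 over all genes, and 7 of 8 changes were positive. Arc, Homer1, Plk2, Plk3 and Nptx2 were higher in all 4 same-numbered pairs, as were 11.0% of all genes. For Homer1, Plk2 and Plk3 every KCl array lay above every untreated one, as for 3.83% of all genes. Before adjustment, 4 of the 8 (Arc, Homer1, Plk2 and Plk3) had a limma p under 0.05, as did 13.0% of all genes. Same-numbered arrays deviated together across genes, so a second fit took the replicate number as a block. In that fit Homer1, Plk2 and Plk3 rose, 3 of 8, beside 2.43% of all genes. The tie between same-numbered arrays did not hold for each effector. Deviations from the group means had opposite signs for Homer1 in pairs 1, 2 and 3 and for Arc in pairs 2, 3 and 4. They did so for Rheb in pairs 1, 3 and 4, for Plk3 in pairs 1 and 3 and for Nrn1 in pairs 1 and 4. For Plk2 this was so in pair 2 only and for Nptx2 in pair 4 only, while Nptx1 had like signs in all 4.

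**Figure D1:**
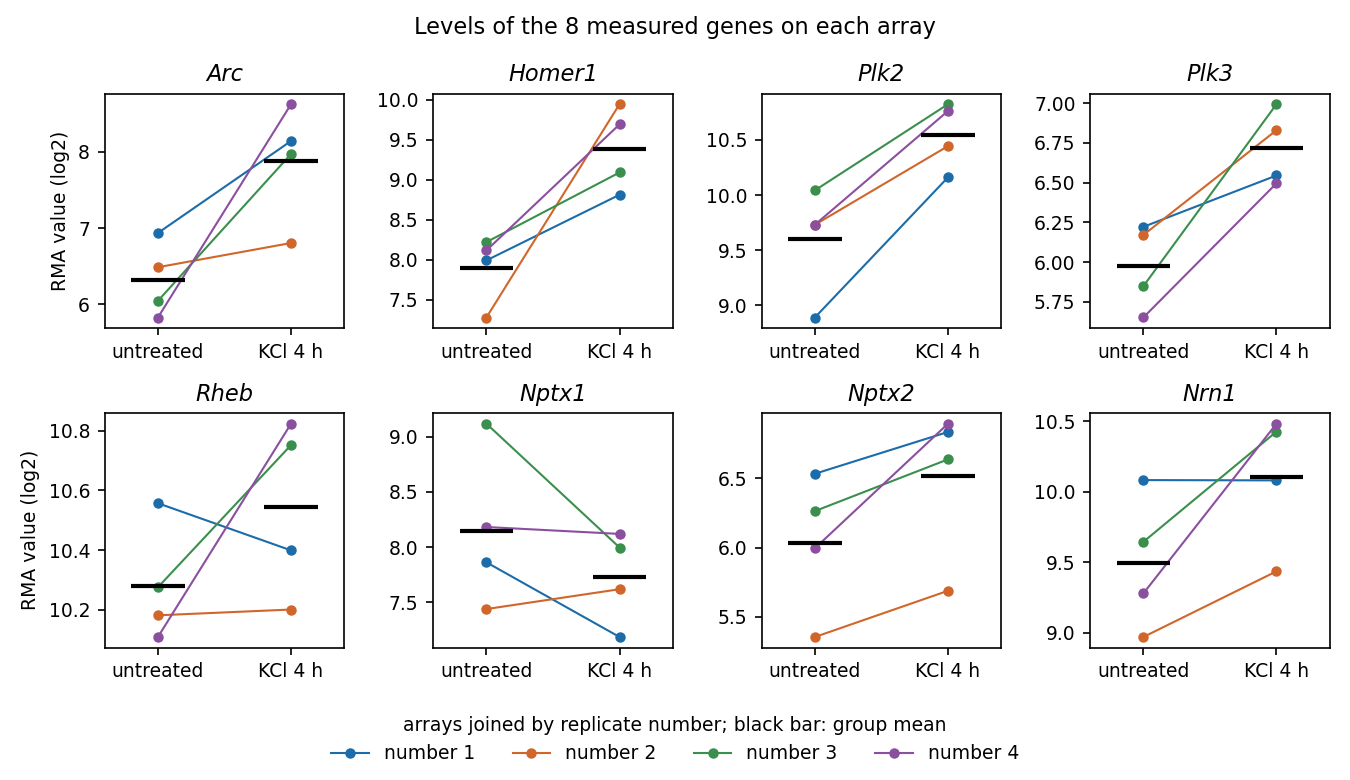
RMA values (log2, y axis, scaled separately for each gene) of the 8 measured genes on each array, untreated on the left and KCl 4 h on the right of each panel. Points are arrays, lines join arrays of the same replicate number and black bars are group means of 4 arrays; the groups are apart for Homer1, Plk2 and Plk3 and overlap for the other 5.

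Homer1 was the effector whose rise passed the test. Its untreated values were 7.99, 7.28, 8.22 and 8.12 in the order of replicates 1 to 4, and its KCl values were 8.81, 9.94, 9.09 and 9.69. The lowest KCl array lay 0.59 above the highest untreated array. The fold was 2.79 (95% interval 1.76 to 4.43; log2 change 1.48, SE 0.292, limma adjusted p = 0.0401, and 0.0481 with the replicate block). The arrays numbered 2 held the lowest untreated and the highest KCl value, a difference of 2.67 within that pair against 0.82, 0.87 and 1.58 in pairs 1, 3 and 4. Leaving out both arrays numbered 2 gave a log2 change of 1.09 (adjusted p = 0.135, and 0.0526 with the block). Of the 8 fits with a single array left out, the call was kept in 1, that without KCl replicate 1 (adjusted p = 0.0306). In the other 7 the adjusted p lay between 0.067 and 0.118 and the log2 change between 1.27 and 1.59.

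RefSeq lists 5 curated transcripts of Homer1, and the array reports them through 1 probe set. The short form induced by activity and the long scaffold forms therefore cannot be told apart in the value above.

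Arc had the largest change of the 8 and missed the threshold. Its untreated values were 6.93, 6.49, 6.04 and 5.83, and its KCl values 8.14, 6.80, 7.97 and 8.63. KCl replicate 2 lay below the highest untreated array, while the other 3 KCl arrays lay above all untreated ones. The fold was 2.96 (95% interval 1.59 to 5.48; log2 change 1.56, SE 0.391, adjusted p = 0.0915, and 0.0703 with the block). By size its change ranked 90th among the rises of 22180 genes, and by p-value it ranked 840th. The within-pair differences ran from 0.32 in pair 2 to 2.80 in pair 4, the widest range of the 8 genes. Without KCl replicate 2, the lowest KCl array, Arc rose (log2 change 1.92, adjusted p = 0.0242). Of the 8 fits with a single array left out, Arc passed in that 1 only. In the others the adjusted p lay between 0.0752 and 0.225. Arc also passed among the genes brighter than the median gene (0.0485) and, with the block, without both arrays numbered 2 (log2 change 1.98, adjusted p = 0.0406). These were its only passes, 3 of 19 alternatives.

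On that same KCl replicate 2, the immediate-early factors were at the level of the other KCl arrays or close below. Fos stood at 10.30 against 10.36 to 10.56 on the other 3, and Fosb at 10.25 against 10.34 to 10.835. Nr4a1 stood at 10.55 against 10.80 to 10.91, and Npas4 at 12.06 against 12.16 to 12.56. Fos, Fosb, Nr4a1 and Npas4 were thus lowest there among the KCl arrays, while Junb, at 9.07, and Egr4, at 7.84, were highest. Of the other effectors, Nptx2 (5.69), Nrn1 (9.44) and Rheb (10.20) were also lowest there, as Arc was. Homer1 (9.94) was highest there, and Plk2, Plk3 and Nptx1 were neither. Pair 2 was the pair with the smallest difference of Arc and the largest of Homer1.

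Both Polo-like kinases passed the test with the replicate block and missed it without. Plk2 stood at 8.89, 9.73, 10.04 and 9.73 in untreated arrays and at 10.16, 10.44, 10.83 and 10.76 after KCl. The groups were apart by 0.12, with the untreated array numbered 1 well below the other 3. The fold was 1.93 (95% interval 1.29 to 2.89; log2 change 0.95, SE 0.255, adjusted p = 0.116). With the block the SE was 0.123 and Plk2 passed (adjusted p = 0.0139), as it did without both arrays numbered 1 (log2 change 0.84, adjusted p = 0.0421).

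Plk3 stood at 6.22, 6.17, 5.85 and 5.65 in untreated arrays and at 6.54, 6.83, 6.99 and 6.50 after KCl. Its groups were apart by 0.27. The fold was 1.67 (95% interval 1.29 to 2.18; log2 change 0.74, SE 0.167, adjusted p = 0.0638). It passed with the block (adjusted p = 0.0427), after a repeated quantile normalization (0.0383) and with array weights (0.0356). Neither kinase passed in any of the 8 fits without the block that left out a single array.

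Whether the change differs between the kinases was tested on the within-array difference, Plk2 minus Plk3. Over the 4 untreated arrays it averaged 3.63 ± 0.70 (SD), and over the 4 KCl arrays 3.83 ± 0.31 (SD), a shift of 0.21 (exact two-sided permutation test over 70 splits, p = 0.657). The smallest p this design allows is 0.0286. The shift turned to -0.11 without untreated replicate 1 and to -0.040 without both arrays numbered 1.

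**Figure D2:**
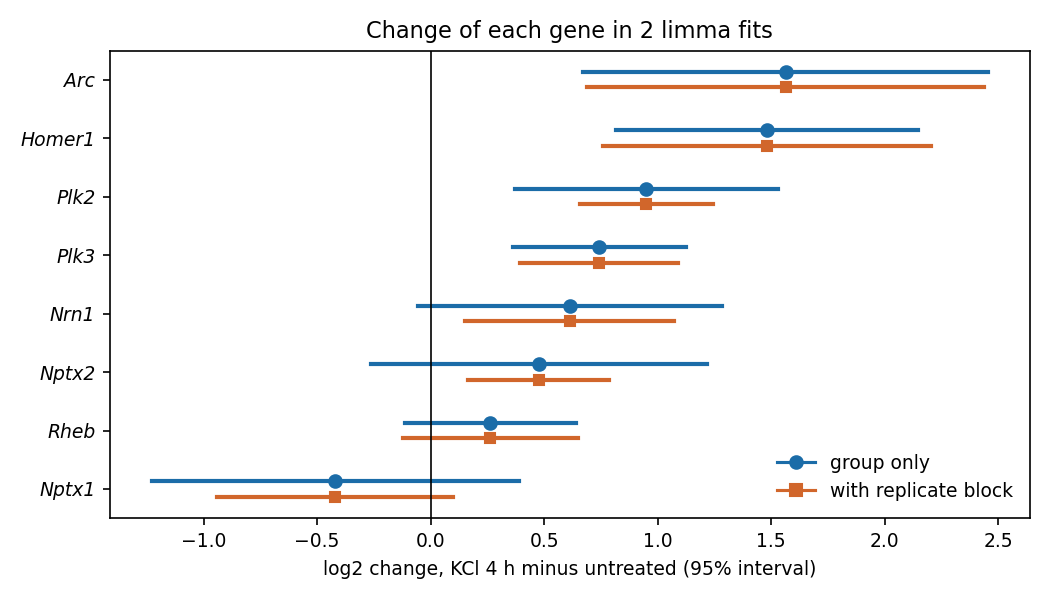
Log2 change after KCl (x axis) of each measured gene with its 95% interval, from the limma fit with group alone (blue circles) and with the replicate number as a block (orange squares). Intervals for Arc, Homer1, Plk2 and Plk3 lie above 0 in both fits, those for Nrn1 and Nptx2 only with the block, and those of Rheb and Nptx1 span 0 in both; these are intervals for single genes, not adjusted over all genes.

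Neither pentraxin with a probe set of its own passed the test, with or without the block. Nptx2, the pentraxin known as Narp and as an immediate-early gene product, stood at 6.53, 5.35, 6.26 and 5.99 in untreated arrays and at 6.83, 5.69, 6.64 and 6.89 after KCl. The groups overlapped widely, yet each KCl array was above its same-numbered partner, by 0.30, 0.33, 0.37 and 0.90. Arrays numbered 2 were the lowest of both groups. The fold was 1.39 (95% interval 0.83 to 2.33; log2 change 0.48, adjusted p = 0.664). With the block the SE went from 0.325 to 0.130, and the adjusted p was 0.105.

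Nptx1, a secreted pentraxin of excitatory synapses, stood at 7.86, 7.44, 9.12 and 8.18 in untreated arrays and at 7.19, 7.62, 7.996 and 8.12 after KCl. It was lower in 3 of 4 pairs, with untreated replicate 3 the highest array. The fold was 0.747 (95% interval 0.427 to 1.31; log2 change -0.42, SE 0.354, adjusted p = 0.765, and 0.395 with the block). Without untreated replicate 3 the log2 change was -0.10.

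The within-array difference Nptx2 minus Nptx1 was -1.33, -2.08, -2.85 and -2.19 in untreated arrays and -0.35, -1.93, -1.36 and -1.22 after KCl. It moved up by 0.90 on average, in 4 of 4 pairs, with groups that overlapped. The exact two-sided permutation p was 0.0857, or 0.171 after Benjamini-Hochberg adjustment over the 2 such differences tested, and a difference in change between these pentraxins was therefore not shown.

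The pentraxin receptor Nptxr, a membrane-anchored relative, shared its probe set with the symbols Npcd and Cbx6, so its signal cannot be given to any of the 3. That probe set stood at 7.88, 8.65, 8.06 and 8.19 in untreated arrays and at 7.82, 7.95, 8.15 and 7.96 after KCl. The log2 change was -0.23 (95% interval -0.60 to 0.15, limma adjusted p = 0.72 in a fit over all 25335 annotated probe sets).

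Neuritin, Nrn1, stood at 10.08, 8.97, 9.64 and 9.28 in untreated arrays and at 10.08, 9.44, 10.43 and 10.48 after KCl. Pair 1 differed by -0.0021, and the other pairs were higher by 0.47, 0.78 and 1.20. Its groups overlapped. The fold was 1.53 (95% interval 0.961 to 2.43; log2 change 0.61, SE 0.294, adjusted p = 0.442, and 0.152 with the block). Leaving out both arrays numbered 1 gave a log2 change of 0.82 (adjusted p = 0.0784 with the block).

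Rheb had the narrowest spread of the 8 genes and a bright signal. It stood at 10.56, 10.18, 10.28 and 10.11 in untreated arrays and at 10.40, 10.20, 10.75 and 10.82 after KCl. Pairs 3 and 4 were higher by 0.48 and 0.72, pair 2 differed by 0.02, and pair 1 was lower, at -0.16. The fold was 1.20 (95% interval 0.925 to 1.56; log2 change 0.26, SE 0.165, adjusted p = 0.615, and 0.498 with the block). That interval leaves out a change of the size estimated for Arc or Homer1.

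**Figure D3:**
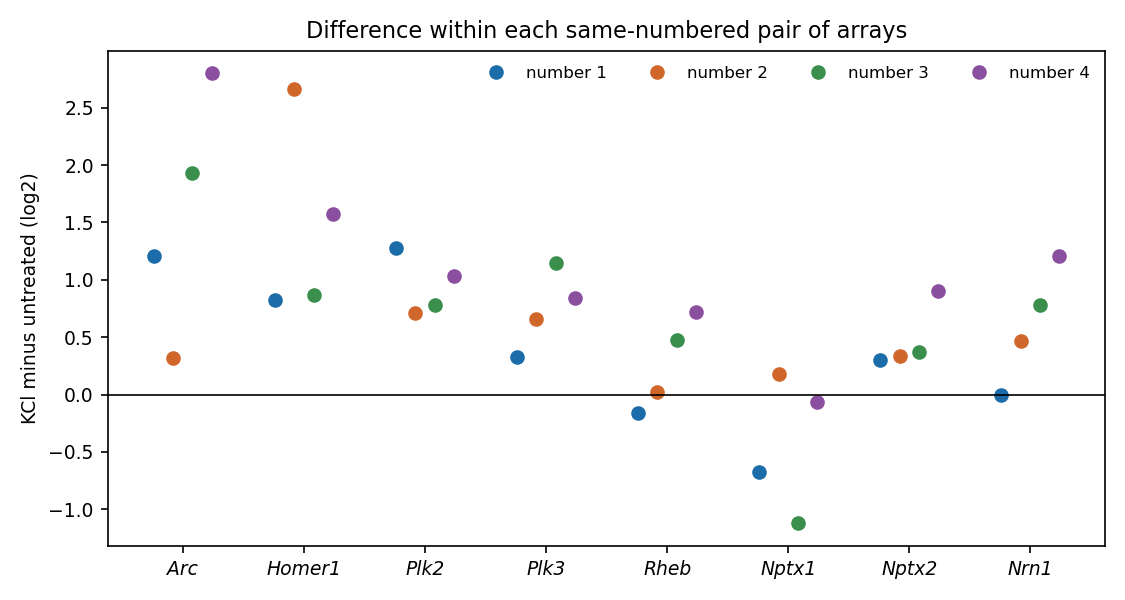
Difference KCl minus untreated (log2, y axis) within each pair of arrays that share a replicate number, for the 8 measured genes. Each colour is 1 replicate number; pair 2 is the lowest point for Arc at 0.32 and the highest for Homer1 at 2.67, and Nptx1 is below 0 in 3 of 4 pairs.

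Other genes of these pathways were taken from lists. Over 6 lists fixed by name, 55 of 61 genes had a probe set of their own. None passed the limma test, beside 2.36% of all genes, and 1 fell with the replicate block, in which 4.44% of all genes changed. An unadjusted p under 0.05 was found for 3 of the 55, a smaller share than the 13.0% of all genes. Their median log2 change was -0.00016, beside -0.01 over all genes.

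Among 17 genes of AMPA receptor endocytosis, where Arc acts, none passed and none had an unadjusted limma p under 0.05. The receptor subunits themselves had log2 changes of -0.10 (Gria1), 0.05 (Gria2), -0.02 (Gria3) and 0.12 (Gria4). Lowest in p were the dynamin Dnm1 (-0.23, adjusted p = 0.578) and Pick1, a receptor-binding scaffold (-0.48, adjusted p = 0.607). Among 10 genes of the Homer family and its partners none passed. Homer2 had a log2 change of -0.24 and Homer3 of 0.30, and the cation channel Trpc1 (0.33, adjusted p = 0.421) and the calcium release channel Ryr1 (0.19, adjusted p = 0.596) had the smallest p-values. Scaffolds and receptors that Homer proteins bind had small changes, 0.06 for Shank1, 0.11 for Shank3 and 0.10 for the glutamate receptor Grm5.

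Of 7 further Polo-like kinases and Plk2 partners none passed. The mitotic kinase Plk1 had a log2 change of -0.06 and Plk4, which drives centriole duplication, one of 0.28. Sipa1l1, the spine scaffold that Plk2 targets, had a change of -0.22 (adjusted p = 0.802). Lowest in p were Cib1, a calcium-binding partner of the kinases (0.33, adjusted p = 0.47), and Rapgef2, an exchange factor for Rap (0.42, adjusted p = 0.522).

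None of 12 genes around Rheb and mTORC1 passed. Akt1s1, an inhibitory subunit of mTORC1, had a log2 change of 0.50 (adjusted p = 0.119), and Mlst8, a core subunit, one of -0.33 (adjusted p = 0.319). Akt1s1 passed without untreated replicate 1, without both arrays numbered 1 and with array weights. Tsc1 and Tsc2, which hold Rheb inactive, had changes of -0.42 and -0.12, and Mtor one of -0.20. Of 9 pentraxin relatives and partners none passed without the block. C1ql2, a secreted synaptic organiser, had a log2 change of -0.78 (adjusted p = 0.188) and the inflammatory pentraxin Ptx3 one of 0.44 (adjusted p = 0.595). C1ql2 fell in the fit without untreated replicate 2. Cacng2, the AMPA receptor auxiliary subunit stargazin, fell with the block (log2 change -0.48, adjusted p = 0.0381, but 0.621 without it). The 1 listed relative of neuritin, Nrn1l, was not analysed here.

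Marker genes of 9 cell types were measured beside these results, and a listed type need not be present in the cultures. None of 51 genes in 9 lists passed the limma test (2.36% of all genes did), 3 had an unadjusted p under 0.05 (13.0% of all genes), and with the block Gad2 fell and Pax6 rose (4.44% of all genes changed). The mean of 5 excitatory neuron markers was lower in 4 of 4 pairs (8.90 to 9.47 in untreated, 8.74 to 9.29 in KCl arrays). Its members differed in sign, with log2 changes of -0.64 for Neurod6, -0.46 for Camk2a and -0.33 for Slc17a7, and of 0.54 for Slc17a6 and 0.14 for Tbr1. Means of 5 inhibitory neuron markers (5.77 to 6.81, then 6.19 to 7.24), of 6 progenitor and cycling markers (5.73 to 6.57, then 6.22 to 6.99) and of 5 endothelial markers (4.20 to 4.72, then 4.27 to 4.82) were higher in 4 of 4 pairs. Members of the inhibitory list differed in sign, with log2 changes of 1.08 for Gad1 and 0.87 for Sst, and of -0.49 for Gad2, -0.13 for Npy and -0.086 for Slc32a1. Astrocyte markers were at 7.58 to 8.24 and 7.70 to 8.11, oligodendrocyte lineage markers at 5.16 to 5.52 and 5.07 to 5.62, microglial markers at 4.30 to 4.42 and 4.12 to 4.43, and fibroblast and meningeal markers at 4.19 to 4.57 and 4.29 to 4.54. RMA has no true 0, and levels within a list were mixed. By percentile of mean level over all genes, microglial markers ran from 3.88 (Itgam) to 57.9 (Cx3cr1), oligodendrocyte lineage markers from 5.12 (Pdgfra) to 78.0 (Olig1), endothelial markers from 8.25 (Tek) to 72.7 (Kdr) and fibroblast markers from 8.77 (Lum) to 58.7 (Dcn). Astrocyte markers ran from 4.75 (Gjb6) to 99.4 (Slc1a3). The median percentile of the endothelial list was 9.22, so most of its markers lay near the low end of the scale. In bulk RNA, fewer cells of a type and less RNA per cell cannot be told apart. The part of these marker shifts in the changes of the effectors was not tested.

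The genes whose level over the 8 arrays was most like that of an effector were found by the root-mean-square (RMS) difference between profiles, each centred on its own mean, among 10559 brighter named genes. A small value means that values rise and dip on the same arrays by the same amounts. This was done for the 6 effectors whose SD over all arrays was above 0.5, and it is a description, since arrays share both treatment and replicate number. A gene chosen in this way changes much as its effector does because of the choice. Its values and adjusted p therefore lend no support to the change of the effector. Nptx2 had the closest match of all, Inhba, which encodes an activin subunit (RMS difference 0.0949, against a median of 0.63 over all genes compared). Inhba stood at 5.17, 4.02, 5.16 and 4.77 in untreated arrays and at 5.66, 4.38, 5.41 and 5.49 after KCl, low on both arrays numbered 2 as Nptx2 was. Next came the glycolytic regulator Pfkfb3 (0.20) and the cytochrome P450 gene Cyp4a12b (0.21). Among the effectors, Nptx2 and Nrn1 were the closest pair (0.19), and Arc and Nptx1 the most distant (1.28).

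Arc was nearest to the neurotrophin gene Bdnf (RMS difference 0.29, against a median of 1.04), then to Elmo1, an adaptor for Rac activation (0.31), and the homeobox factor Emx2 (0.36). Bdnf stood at 6.88, 6.06, 5.93 and 6.13 in untreated and at 7.55, 6.21, 7.77 and 8.15 in KCl arrays, again low on KCl replicate 2. Elmo1 rose (log2 change 1.34, adjusted p = 0.0166), and so did Emx2 with the block (1.22, adjusted p = 0.0311, but 0.0767 without it). Homer1 was nearest to Taf13, a subunit of the general transcription factor TFIID (0.21, against a median of 0.93), Tsc22d2 (0.31) and the centriole gene Stil (0.32), and all 3 rose (adjusted p = 0.0173, 0.00219 and 0.0171). Taf13, like Homer1, was lowest on untreated replicate 2, at 5.04, and highest on KCl replicate 2, at 7.38.

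Plk2 was nearest to Preb, a factor of vesicle export from the endoplasmic reticulum (0.16, against a median of 0.67), the neuronal splicing factor Srrm4 (0.17) and the endoplasmic reticulum oxidase Ero1b (0.17). Preb (log2 change 0.86, adjusted p = 0.0438) and Srrm4 (1.25, adjusted p = 0.0387) rose, as did Ero1b with the block (1.00, adjusted p = 0.0251, but 0.114 without it). Nrn1 was nearest to the sterol isomerase gene Ebp (0.19), Ccdc141 (0.24) and the atypical kinase gene Mapk4 (0.25), and Nptx1 to the stress hormone receptor gene Crhr1 (0.23), the sorting receptor gene Sorcs3 (0.24) and Gfpt2, of hexosamine synthesis (0.25). None of these 6 passed (limma adjusted p of 0.182 to 0.798).

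**Figure D4:**
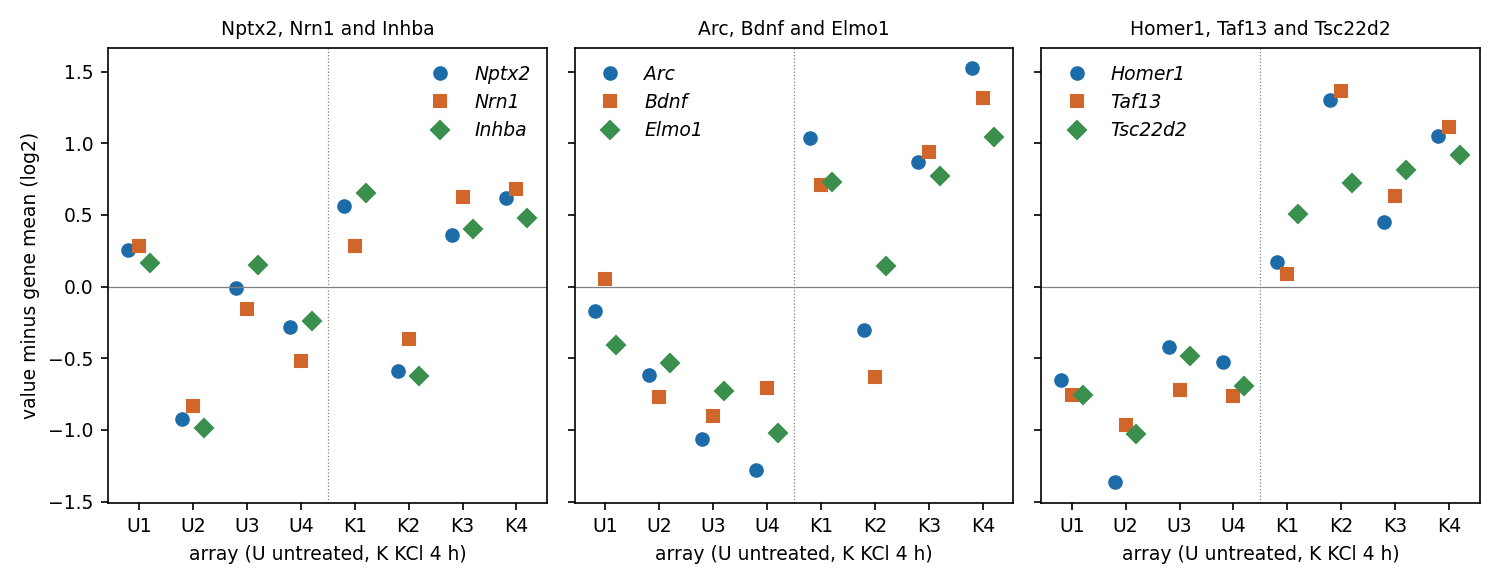
Log2 value minus the gene's mean over the 8 arrays (y axis) on untreated arrays 1 to 4 (U1 to U4) and KCl arrays 1 to 4 (K1 to K4), for an effector and genes with similar profiles. Nptx2, Nrn1 and Inhba are low on U2 and K2, Arc and Bdnf are low on K2, and Homer1 and Taf13 are highest on K2.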

How the data were processed

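The authors deposited 1 log2 value per probe set and array. The submitters' processing notes name RMA, a method that removes background, puts arrays on 1 scale and combines probes into 1 value, and also Partek, without versions or settings. RNA was labelled with the WT Plus kit of Affymetrix, per the labels' protocols. RMA compresses differences near background, so changes of dim genes are understated.

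The platform annotation gave 23521 of 34472 probe sets 1 symbol, 1814 several and 9137 no name here. Each gene took its probe set of highest mean over the 8 arrays, which left 22180 genes, and each of the 8 effectors had 1 probe set. Groups came from sample titles. The comparison used limma 3.58.1 (lmFit and eBayes, two-sided, R 4.3.3) and was checked on simulated data with 200 changed genes. There, 67.2% of log2 changes of 1 and 90.4% of log2 changes of 2 were recovered, and 5.52% of calls were false. A gene that did not pass may therefore still have changed. The simulated arrays were drawn independently of each other, without the tie seen between same-numbered arrays. Only the fit with group alone was checked in this way. The simulated shares may therefore not hold for the real arrays. Changes of paralogues were compared by exact permutation over arrays. Precision is limited by 4 arrays per group.

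Same-numbered arrays correlated at 0.64, 0.23, 0.41 and 0.37 in their deviations from group means across genes, all over 0.1, although no label ties a number to a litter or day. Arrays of different number correlated at up to 0.30, between numbers 3 and 4, which is above the 0.23 of pair 2. Each same-numbered value was still above the highest that its own arrays had with an array of another number. The numbers were therefore used as a replicate block in a second fit.

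The genes, lists and alternatives were chosen with earlier results of these data known. Motifs were chosen after the promoters had been read. By the rule for named genes, the text names all effectors, the 3 nearest profiles of each with an SD above 0.5, the stimulus genes, and in each list the genes past the threshold or else the 2 of smallest p. Any further list gene was picked with its value in view. Alternatives were the block, repeated quantile normalization, median centring, brighter genes, the mean of probe sets, trended and robust eBayes, array weights, and leaving out each array or both arrays numbered 1. Leaving out both arrays numbered 2 was added after the data were seen. Figures used matplotlib 3.10.9.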

Additional observations from a re-analysis of the deposited data

How the results depend on the processing

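No effector changed direction in any of the 19 alternatives, and Nptx1 alone was lower after KCl in each. Calls depended on the fit. With the replicate block 3 effectors rose (985 genes were called in all, against 524). Among genes brighter than the median gene 2 rose (Arc and Homer1), with array weights 2 (Homer1 and Plk3), and without both arrays numbered 1, 2 rose, either without the block (Homer1 and Plk2) or with it (Plk2 and Plk3). Without both arrays numbered 2, 0 effectors and 161 genes were called, and with the block 2 effectors (Arc and Plk2). Repeated quantile normalization called Plk3 in place of Homer1 (adjusted p = 0.0503 for Homer1 in limma). With single arrays left out, 0 to 1 effectors and 186 to 501 genes were called. Of the pathway genes, 1 was called with the block, 1 with array weights, 1 without both arrays numbered 1 and 0 to 1 with single arrays left out. Plk2 minus Plk3 moved by -0.11 to 0.40 with single arrays left out and by -0.040 without both arrays numbered 1, and Nptx2 minus Nptx1 by 0.61 to 1.16. With a sign-flip over the 4 replicate pairs (the paired form of that test, with 16 sign patterns, too few to pass), p was 0.625 for the first, and the second had the smallest p this allows. The cause of these shifts was not tested.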

Other observations

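The untreated cultures differed among themselves in the levels of some activity genes. Untreated replicate 1 had the highest value of its group for Npas4 (10.61, against 5.69 to 8.60 on the other 3 arrays), Arc (6.93, against 5.83 to 6.49), Bdnf (6.88, against 5.93 to 6.13), Nptx2 (6.53, against 5.35 to 6.26), Nrn1 (10.08, against 8.97 to 9.64), Rheb (10.56, against 10.11 to 10.28) and Plk3 (6.22, against 5.65 to 6.17). Fos (6.90, against 5.57 to 6.69) and Nr4a1 (7.86, against 5.57 to 6.97) were also highest there. Untreated replicate 1 had the lowest value for Plk2 (8.89, against 9.73 to 10.04). It was not the highest for Homer1 (7.99, against 8.22 on replicate 3), Fosb (5.45, against 6.34 on replicate 4), Junb (6.05, against 6.41 on replicate 2) or Egr4 (5.58, against 5.93 on replicate 2). These genes were picked after their values were seen, and no test was made of the pattern.

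The paired differences of Arc (1.21, 0.32, 1.93 and 2.80 in the order of replicate numbers) and of Nrn1 (-0.0021, 0.47, 0.78 and 1.20) were both largest in pair 4, as were those of Rheb (0.72) and Nptx2 (0.90). Homer1 was largest in pair 2 (2.67), Plk2 in pair 1 (1.27) and Plk3 in pair 3 (1.15). The 8 genes therefore did not share 1 pair of strongest response.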
